A study of Mus musculus with 8 samples.

Results

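The chemokine system of the steatotic mouse liver was described here by 58 genes, 37 chemokine ligands and 21 receptors, out of 52030 named genes in the deposited table. Members were every gene whose symbol names it a CC, CXC or CX3C ligand or receptor, and the atypical receptors Ackr1 to Ackr4. The rule used symbols only, but it was chosen with earlier results of these data known. The ligands comprised 23 CC, 13 CXC and 1 CX3C genes, and the receptors 10 CC, 6 CXC, 1 CX3C and 4 atypical genes. Wild-type mice on the CDAHFD diet, which lacks choline, carries defined amino acids and a high fat load and brings on steatohepatitis, had received vesicles from human blood by vein. In the group RIC_hEV (4 libraries) the volunteers had undergone remote ischemic conditioning of a limb, and in ctr_hEV (4 libraries) a sham, so both groups share the diet and the human vesicles and differ in the donors' procedure. No group without vesicles or without the diet was analysed here, and the mice's age, sex and strain, the dose and the time after injection were not stated. Nor do the labels say that each library is a separate mouse, so p-values measure the spread between these libraries, which may be technical.

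Chemokines are small secreted proteins that direct the movement of leukocytes along gradients, and they act through receptors coupled to inhibitory G proteins. The families are named for the spacing of the first cysteines, adjacent in CC and separated by a residue in CXC members. In injured liver, CC ligands of Ccr2 are known for recruiting monocytes, CXC ligands of Cxcr2 for neutrophils, and ligands of Cxcr3 for activated T cells. Atypical receptors bind chemokines without the classical signal and remove or display them.

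Library depth, estimated from the size of the smallest steps in the values, was 19300000 to 28800000 fragments. Hepatocyte markers were tested in 10 of 10 cases and summed to 29127 to 45005 FPKM over the 8 libraries, so the tissue matched its label (FPKM scales fragments to transcript length and library size). The fitted log2 change of these markers was above 0 in 10 of 10, with 5 at an unadjusted p under 0.05. By mean FPKM, 9 were higher in RIC_hEV and 1 was lower. They summed to 36374 to 44041 FPKM in RIC_hEV, and their part in the ligand values was not tested. The libraries ctr_hEV 1 and ctr_hEV 3 stood apart from the other 6 in markers of several cell types. Their summed cholangiocyte markers were 156 and 115 FPKM against 23.0 to 42.4 elsewhere, and stellate and fibroblast markers 277 and 224 against 118 to 156. Monocyte-derived macrophage markers summed to 1373 and 1032 FPKM in these libraries and to 467 to 726 in the rest. Spp1 counts in both the cholangiocyte and the macrophage sum and was the largest part of the former. It was at 129 and 97.7 FPKM in ctr_hEV 1 and 3 and at 16.9 to 36.0 in the rest. In bulk tissue, fewer cells of a type and less RNA per cell cannot be told apart.

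No chemokine or receptor gene passed the test between the groups. Of 19 tested ligands, 16 had a log2 change below 0 in RIC_hEV, where 73.0% of all tested genes did. The members that stood lowest against their spread were the monocyte attractants Ccl2 and Ccl7, the neutrophil attractants Cxcl1, Cxcl2 and Cxcl5, and Ccl3 and Cxcl10. Summed over all 37 ligands, FPKM was 227, 190, 207 and 180 in ctr_hEV 1 to 4 and 132, 161, 174 and 167 in RIC_hEV 1 to 4, so that the groups did not overlap. The sum over the 21 receptors was 28.0, 19.7, 26.7 and 17.3 in ctr_hEV and 16.2, 19.3, 19.2 and 19.0 in RIC_hEV, where the groups overlapped and ctr_hEV 1 and 3 were the high libraries.

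A mean of at least 1 FPKM over all 8 libraries was reached by 24 members, 19 ligands and 5 receptors, which were tested by limma on log2(FPKM + 1) together with all 11268 such genes. On this scale the fold of a gene of low level is understated. No member passed at an adjusted p under 0.05, against 0.0355% of all tested genes (4 genes), and the lowest adjusted p of a member was 0.331. At an unadjusted p under 0.05 there were 10 of 24 members, all lower in RIC_hEV and all ligands, where 11.4% of tested genes were lower at that level and 2.64% higher. In 5 of the 24 (Ccl3, Ccl7, Cxcl2, Cxcl5 and Cxcl10) every RIC_hEV library lay below every ctr_hEV library, as in 4.56% of tested genes, and in no member did all lie above, as in 1.31%. The log2 change was below 0 in 20 of 24 members and in 73.0% of tested genes, and the median tested gene lay at -0.11. The tested members Ccl7, Ccl21b and Cxcl5, reached 1 FPKM on average in ctr_hEV only, so that the filter favoured a lower value in them. Among the 21 members with both group means of at least 1 FPKM, 8 had an unadjusted p under 0.05 and the groups were apart in 3.

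**Figure D1:**
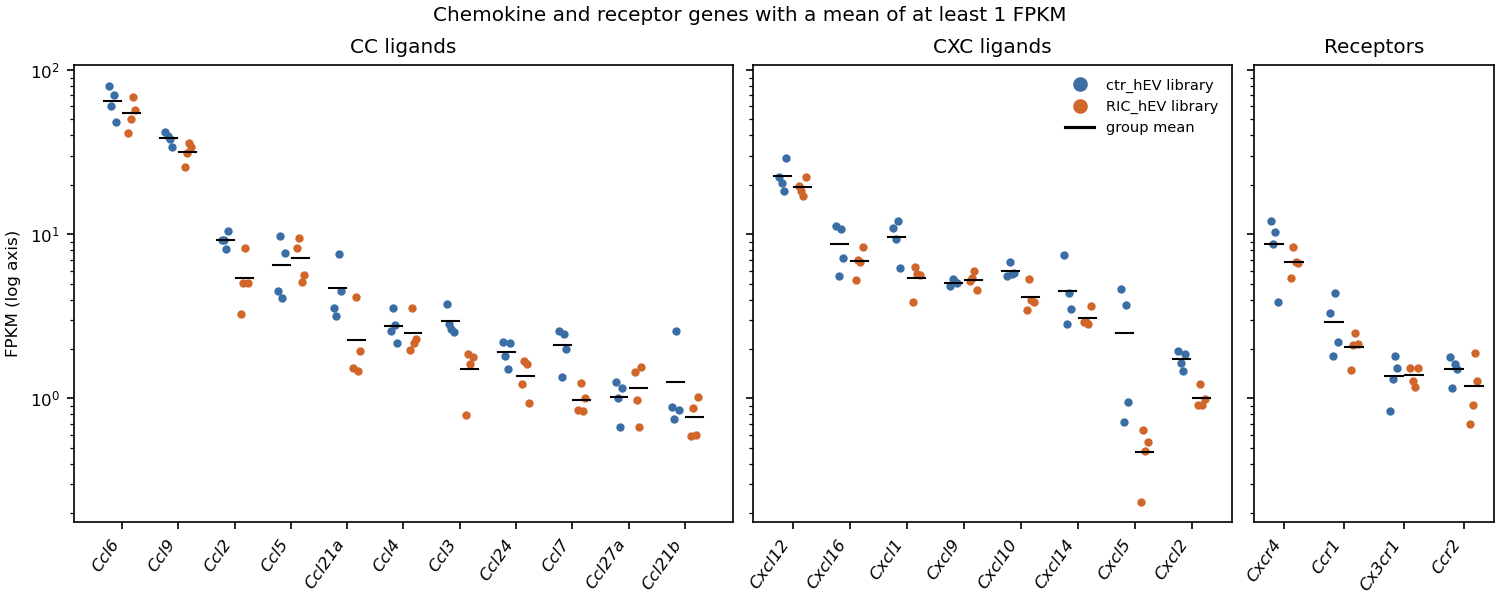
FPKM on a log axis of 23 members with a mean of at least 1 FPKM, in panels of CC ligands, CXC ligands and receptors, each ordered by mean level. Points are single libraries (blue ctr_hEV, orange RIC_hEV) and bars are group means; Ccl6, Ccl9 and Cxcl12 stand highest, and the groups are apart in Ccl3, Ccl7, Cxcl2, Cxcl5 and Cxcl10.

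By role, tested ligands had a median log2 change of -0.31, which was 0.20 below the median of all tested genes (-0.20 relative to it), with values from -1.06 to 0.14. Tested receptors had a median of -0.24 (-0.13 relative to all genes), with values from -0.32 to 0.018. Of the 19 ligands 10 had an unadjusted p under 0.05, and of the 5 receptors 0 had. Tested CC ligands (11 genes) had a median change of -0.29 and 6 at an unadjusted p under 0.05, and tested CXC ligands (8 genes) a median of -0.41 and 4. The median over a set also varied between libraries, with a pooled SD of 0.17 for ligands and 0.23 for receptors. For CC ligands this SD was 0.28 and for CXC ligands 0.14. Members are not replicates, so neither the difference between ligands and receptors nor that between CC and CXC was tested. Over the 55 members with a value above 0 in any library, with no filter on low values, 26 of 34 ligands and 13 of 21 receptors were lower, against 66.4% of all such genes. Their medians were -0.16 for ligands and -0.031 for receptors, beside -0.024 for all genes in that fit.

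**Figure D2:**
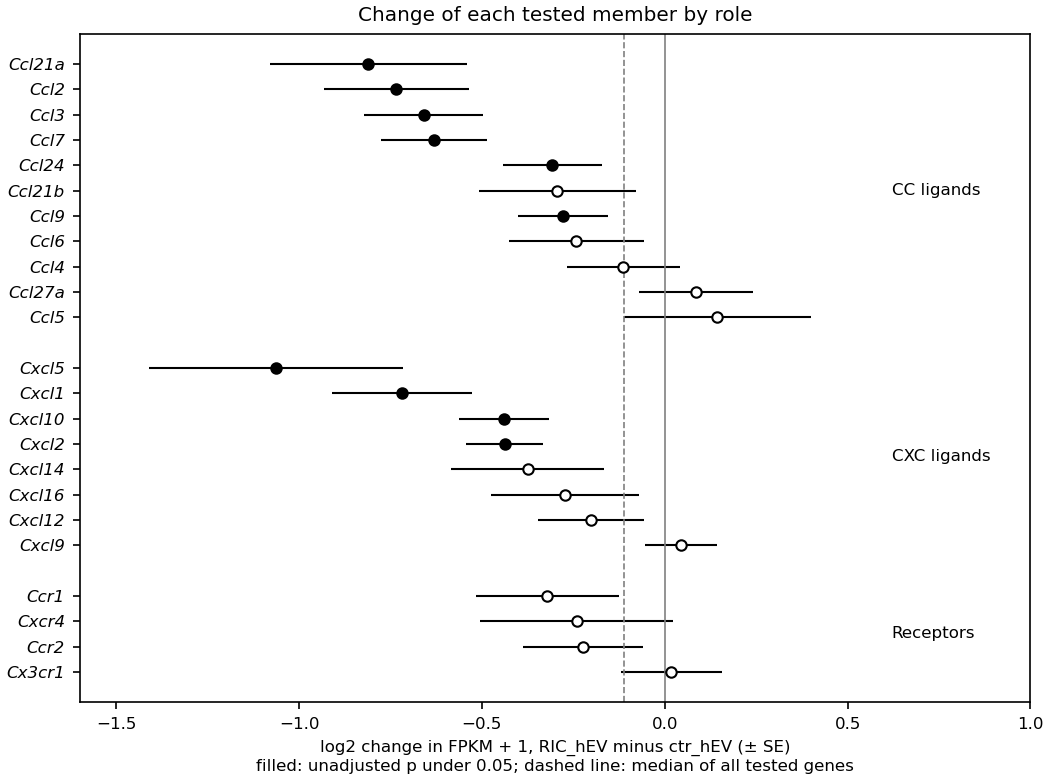
Log2 change (RIC_hEV minus ctr_hEV, on FPKM + 1) with its standard error for 23 tested members, grouped by role. Filled points have an unadjusted p under 0.05, the dashed line is the median of all tested genes at -0.11, and the filled points are all ligands, 6 CC and 4 CXC.

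The most abundant ligands were Ccl6 and Ccl9, macrophage-derived CC chemokines that bind Ccr1. Per kilobase, both together took 45.6% to 53.6% of the ligand FPKM in ctr_hEV and 50.6% to 60.0% in RIC_hEV. Ccl6 had FPKM of 79.9, 60.0, 70.1 and 48.0 in ctr_hEV 1 to 4 and of 41.3, 50.5, 68.5 and 57.2 in RIC_hEV 1 to 4. The groups overlapped, and its log2 change of -0.24 (-0.13 relative to the median gene, SE 0.18) had an exact permutation p of 0.286 and a limma adjusted p of 0.508. Ccl9 was at 41.9, 39.5, 38.2 and 34.2 FPKM in ctr_hEV and 25.7, 31.2, 36.1 and 33.8 in RIC_hEV, with 3 of 4 RIC_hEV libraries below the lowest control. Its change was -0.28 (-0.17 relative, SE 0.12; exact permutation p = 0.0571, limma adjusted p = 0.354).

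The genes of Ccl6 and Ccl9 lie beside those of Ccl3, Ccl4 and Ccl5 within 1 stretch of chromosome 11. Log2 changes there ran from -0.66 (Ccl3) to 0.14 (Ccl5), and only Ccl5 was above 0. Ccl3, which attracts monocytes and neutrophils through Ccr1 (among others) (chromosome 11, 83647844 to 83649355, minus strand), was at 3.75, 2.82, 2.65 and 2.55 FPKM in ctr_hEV and 0.797, 1.87, 1.61 and 1.79 in RIC_hEV. Every RIC_hEV library was below every control, and the RIC_hEV mean was 51.7% of the control mean. The log2 change was -0.66 (-0.55 relative, SE 0.16; exact permutation p = 0.0286, limma adjusted p = 0.331). An estimated 15.6 to 79.4 fragments per library lay behind these values. Its neighbour Ccl4, a close relative of it, had group means of 2.77 ± 0.568 FPKM (ctr_hEV) and 2.51 ± 0.710 (RIC_hEV) (SD, n = 4 per group), with overlapping groups and a change of -0.11, the same as the median gene. Ccl5, a ligand of Ccr1 and Ccr3 made by T and NK cells among others, was at 6.53 ± 2.70 and 7.13 ± 2.09, a change of 0.14 that turned to -0.29 without ctr_hEV 1 and 3. Whether Ccl3 differed from its neighbours in response was not tested.

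The Ccr2 ligands lie in another stretch of chromosome 11. Ccl2, the main attractant of inflammatory monocytes (plus strand of chromosome 11, 82035571 to 82037453), had FPKM of 9.22, 9.17, 8.18 and 10.5 in ctr_hEV and 3.25, 5.03, 8.21 and 5.08 in RIC_hEV. RIC_hEV 3 stood level with the lowest control while the other 3 lay well below, and the RIC_hEV mean was 58.2% of the control mean. The change was -0.73 (-0.62 relative, SE 0.20; exact permutation p = 0.0571, limma adjusted p = 0.331). Ccl7, which also binds Ccr2 (chromosome 11, 82045712 to 82047525, plus), was at 2.58, 1.35, 2.47 and 2.01 FPKM in ctr_hEV and 0.844, 1.24, 0.839 and 1.01 in RIC_hEV. The groups did not overlap, the RIC_hEV mean was 46.8% of the control mean, and the change was -0.63 (-0.52 relative, SE 0.14; exact permutation p = 0.0286, limma adjusted p = 0.331). Both genes were lower at an unadjusted p under 0.05 with each library left out in turn and without ctr_hEV 1 and 3 together (changes of -0.81 for Ccl2 and -0.43 for Ccl7). The third Ccr2 ligand of the stretch, Ccl12, was far lower, at 0.226 ± 0.229 and 0.205 ± 0.194 FPKM, and its groups overlapped.

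Their receptor Ccr2, which releases monocytes from marrow and guides them to tissue, averaged 1.52 ± 0.267 FPKM in ctr_hEV and 1.19 ± 0.517 in RIC_hEV, with a change of -0.22 (exact permutation p = 0.343, limma adjusted p = 0.492). RIC_hEV 3 held the highest Ccr2 value of all 8 libraries, 1.88 FPKM, and also the highest Ccl2 value of its group, while RIC_hEV 1 was lowest in both genes. Markers of monocyte-derived macrophages outside the members were lower on average in RIC_hEV in 11 of 13, with sums of 616 to 1373 FPKM in ctr_hEV and 467 to 726 in RIC_hEV, and none was at 0 in all libraries. Of all tested genes, 73.0% had a log2 change below 0. The part of these markers in the Ccl2 and Ccl7 difference was not tested.

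Cxcr2 is the receptor by which neutrophils enter injured tissue. Of its 4 ligands among the members, 3 were tested, and genes outside the members were not counted. Each of the 3 had a lower value in RIC_hEV at an unadjusted p under 0.05, with adjusted p of 0.331 to 0.347 by limma. Cxcl1, the major neutrophil attractant of mouse liver (plus strand of chromosome 5, 90891241 to 90893115), had FPKM of 10.9, 9.39, 12.1 and 6.24 in ctr_hEV and 3.87, 6.31, 5.76 and 5.68 in RIC_hEV. Only ctr_hEV 4 reached down to the RIC_hEV values, and the RIC_hEV mean was 55.9% of the control mean. The change was -0.72 (-0.61 relative, SE 0.19; exact permutation p = 0.0571, limma adjusted p = 0.331). It was the only member that passed in any of the alternatives run, without ctr_hEV 4 (change of -0.89, adjusted p = 0.0397, where 1.55% of all tested genes passed), and its change was -0.45 without ctr_hEV 1 and 3.

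Cxcl2, a close relative of Cxcl1 in the same stretch of chromosome 5 that macrophages release early in inflammation, was at 1.95, 1.64, 1.46 and 1.86 FPKM in ctr_hEV and 0.912, 1.23, 0.908 and 0.996 in RIC_hEV. The groups did not overlap, and the change was -0.44 (-0.33 relative, SE 0.10; exact permutation p = 0.0286, limma adjusted p = 0.331), and -0.45 without ctr_hEV 1 and 3. Cxcl5, a Cxcr2 ligand of epithelial cells and macrophages, was at 4.63, 0.717, 3.68 and 0.945 FPKM in ctr_hEV and 0.235, 0.638, 0.478 and 0.541 in RIC_hEV. All RIC_hEV values were below all controls, but ctr_hEV 1 and 3 lay several times above the other 2 controls, which stood just above RIC_hEV. The change was -1.06 (-0.95 relative, SE 0.35; exact permutation p = 0.0286, limma adjusted p = 0.347), and without ctr_hEV 1 and 3 the gene no longer reached 1 FPKM. Cxcl3, the fourth Cxcr2 ligand among the members, shares 7.59% of the 31-base stretches of Cxcl2 and was near 0 throughout (0.0309 ± 0.0258 and 0.0125 ± 0.0204 FPKM).

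Cxcr2 itself fell below the filter. It was at 0.960, 0.455, 1.54 and 0.361 FPKM in ctr_hEV and 0.235, 0.330, 0.228 and 0.283 in RIC_hEV, an estimated 16.6 to 111 fragments. The groups did not overlap, which gives the smallest p an exact two-sided permutation test allows over the 70 splits (p = 0.0286, unadjusted). With no filter on low values its limma adjusted p was 0.542. It was the only one of 34 members below the filter whose groups did not overlap, where 2.65% of the genes below the filter with any value were apart in that direction. Neutrophil markers other than Cxcr2 were lower on average in RIC_hEV in 13 of 13, of which 6 reached the filter. Of all tested genes 73.0% had a log2 change below 0, and of genes below the filter with any value 62.2% had a lower mean. The markers summed to 43.6, 39.7, 83.9 and 20.0 FPKM in ctr_hEV and 13.4, 22.3, 17.4 and 13.6 in RIC_hEV. Ly6g, a defining neutrophil marker, was near 0 throughout, at 0.0815, 0.0782, 0.183 and 0 FPKM in ctr_hEV and at 0 in all RIC_hEV libraries. Other markers of the list, such as S100a8 and Csf3r, were above 0 in every library. Csf3r was at 2.54 to 5.97 FPKM in ctr_hEV and 1.74 to 2.85 in RIC_hEV. The part of these markers in the Cxcr2 and ligand values was not tested.

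**Figure D3:**
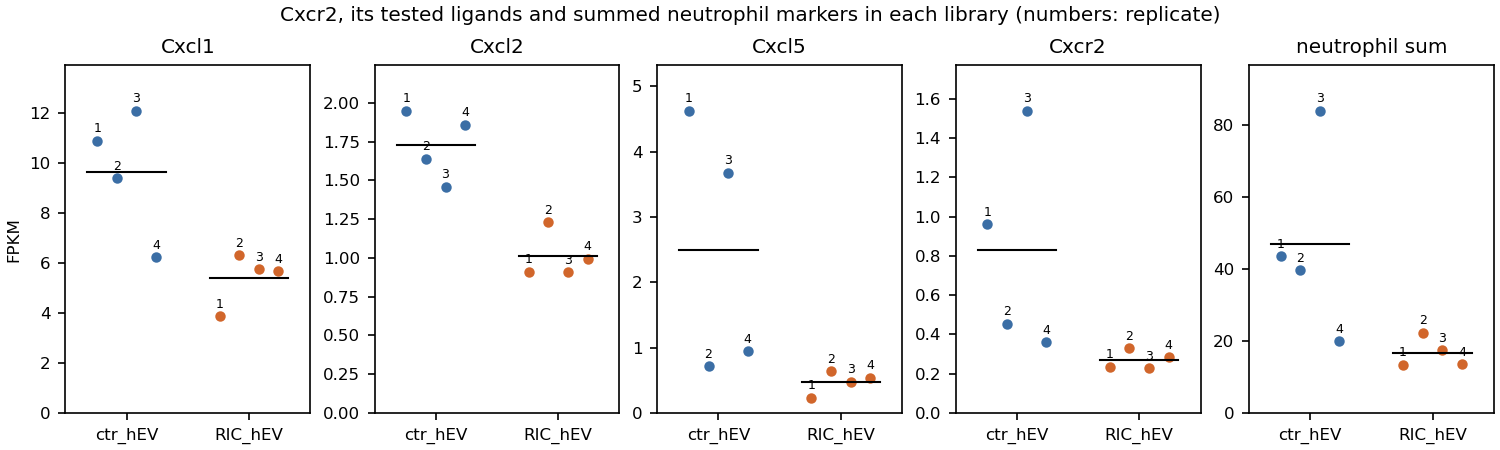
FPKM in each library (replicate number above each point, bars for group means, each panel with its own axis from 0) of the Cxcr2 ligands Cxcl1, Cxcl2 and Cxcl5, of Cxcr2, and of 13 summed neutrophil markers. Controls 1 and 3 are the high libraries of Cxcl5 and Cxcr2, whereas Cxcl2 is lowest among controls in ctr_hEV 3 and is still above every RIC_hEV library.

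As Cxcl1 and Cxcl2 lay lower together, the 250 bases before their start sites are shown, from RefSeq's table for build GRCm38.p6, read 5′ to 3′ on the gene's strand. Capitals mark matches on either strand to GGGANNNNCC, a pattern shared by many sites of the inflammatory transcription factor NF-kB, and to GAAANNGAAA, a pattern of interferon response elements.
Cxcl1 (chr5:90890995-90891244, plus strand): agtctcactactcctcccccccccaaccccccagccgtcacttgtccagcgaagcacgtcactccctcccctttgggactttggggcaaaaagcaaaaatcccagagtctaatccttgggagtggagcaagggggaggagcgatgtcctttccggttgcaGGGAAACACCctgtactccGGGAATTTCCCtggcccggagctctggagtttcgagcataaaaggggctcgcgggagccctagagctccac
Cxcl2 (chr5:90903649-90903898, plus strand): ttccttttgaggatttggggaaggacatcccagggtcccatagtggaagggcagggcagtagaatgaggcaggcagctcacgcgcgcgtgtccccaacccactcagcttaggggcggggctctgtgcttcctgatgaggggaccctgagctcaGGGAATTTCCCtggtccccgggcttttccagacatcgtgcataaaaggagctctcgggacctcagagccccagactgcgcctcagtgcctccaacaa
The stretch GGGAATTTCC occurred 71 bases before the start of Cxcl1, 97 before that of Cxcl2 and 73 before that of Cxcl3. In each it overlapped a match on the opposite strand shifted by 1 base. Cxcl1 held a further match 90 bases before its start. GGGANNNNCC was found in 17.6% of all 32851 promoter windows and in windows of 19 of 43 members (12 of 26 ligands and 7 of 17 receptors), and GAAANNGAAA in 2.98% of all windows and in 3 members, Cxcl10, Cxcl14 and Ccl19. Close relatives with the same stretch each count among the members, as Cxcl1, Cxcl2 and Cxcl3 do, and Ccl27a and Ccl27b. The share in members was therefore not tested against that of all windows. A match describes the letters and does not show a bound site. Ccl3 held neither pattern in its window, and Ccl2, Ccl7 and Cxcl5 were not among the 43 members examined.

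Among the ligands of Cxcr3, the receptor of activated T and NK cells, neighbouring genes differed in their values. Cxcl10, induced by interferon and by NF-kB (chromosome 5, 92346638 to 92348889, minus strand), was at 5.55, 6.74, 5.70 and 5.79 FPKM in ctr_hEV and 3.47, 5.32, 3.99 and 3.84 in RIC_hEV. The groups did not overlap, and the RIC_hEV mean was 69.9% of the control mean. The change was -0.44 (-0.33 relative, SE 0.12; exact permutation p = 0.0286, limma adjusted p = 0.331), and -0.50 without ctr_hEV 1 and 3. Cxcl9, which depends on interferon gamma and whose gene lies beside it, was at 4.84, 5.30, 5.11 and 5.04 FPKM in ctr_hEV and 5.18, 5.38, 5.96 and 4.59 in RIC_hEV. Its groups overlapped, with a change of 0.044 (0.15 relative, SE 0.10; exact permutation p = 0.543, limma adjusted p = 0.828). The difference between the changes of both genes was not tested. Cxcl11, annotated as a polymorphic pseudogene, was at 0.241 to 0.893 FPKM in ctr_hEV and 0.396 to 0.613 in RIC_hEV. Of its 31-base stretches 42.2% are found in other genes, and its exons overlap Gm2673 on the other strand. Cxcr3 was at 0.860 ± 0.0953 and 0.870 ± 0.185, and the groups overlapped in both genes. The windows of Cxcl10 and Cxcl9 are shown to set these neighbours side by side, marked as above.
Cxcl10 (chr5:92348890-92349139, minus strand): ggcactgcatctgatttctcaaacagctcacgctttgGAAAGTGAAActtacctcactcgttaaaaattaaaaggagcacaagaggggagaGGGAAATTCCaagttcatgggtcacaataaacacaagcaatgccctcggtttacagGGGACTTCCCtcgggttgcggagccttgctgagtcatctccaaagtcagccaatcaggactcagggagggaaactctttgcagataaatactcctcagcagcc
Cxcl9 (chr5:92328080-92328329, minus strand): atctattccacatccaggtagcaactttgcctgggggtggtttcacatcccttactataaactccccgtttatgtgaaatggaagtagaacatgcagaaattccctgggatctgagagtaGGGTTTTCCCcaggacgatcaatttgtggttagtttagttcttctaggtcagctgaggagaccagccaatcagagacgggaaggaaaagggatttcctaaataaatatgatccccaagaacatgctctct
The window of Cxcl10 held matches to GGGANNNNCC 159 and 103 bases before its start and a match to GAAANNGAAA at 213, while that of Cxcl9 held 1 match to GGGANNNNCC, on the opposite strand at 130. Exons of Cxcl10 overlap those of Art3 on the other strand, whose reads cannot be told apart without a stated strand setting.

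Ligands of lymphoid homing and of eosinophils held 2 members at an unadjusted p under 0.05, Ccl21a and Ccl24. Ccl21a, which guides dendritic cells and T cells through Ccr7, was at 3.57, 3.17, 7.53 and 4.48 FPKM in ctr_hEV and 1.53, 4.15, 1.46 and 1.95 in RIC_hEV. RIC_hEV 2 lay among the controls and the other 3 below them, with a change of -0.81 (-0.70 relative, SE 0.27; exact permutation p = 0.0857, limma adjusted p = 0.352). Its level is uncertain, since 80.6% of its 31-base stretches occur in other annotated genes, among them Ccl21b, for which the share is 100%. Ccl21b was at 1.26 ± 0.877 and 0.772 ± 0.214 FPKM. Their receptor Ccr7 was at 0.688 ± 0.366 and 0.445 ± 0.133 and the other Ccr7 ligand Ccl19 at 0.926 ± 0.341 and 0.779 ± 0.243 (58.8% of its 31-base stretches shared with other genes), with overlapping groups. Ccl24, an eosinophil attractant made by macrophages that binds Ccr3, was at 2.20, 1.80, 1.50 and 2.19 FPKM in ctr_hEV and 1.22, 1.69, 1.62 and 0.941 in RIC_hEV. The groups overlapped, with a change of -0.31 (-0.20 relative, SE 0.14; exact permutation p = 0.114, limma adjusted p = 0.354), and Ccr3 was at 0.101 ± 0.0355 and 0.107 ± 0.0355.

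The other homeostatic and membrane-bound ligands, those named here, did not reach an unadjusted p under 0.05. Cxcl12, the Cxcr4 ligand of stromal and endothelial cells, was at 22.3, 20.6, 18.4 and 29.3 FPKM in ctr_hEV and 19.6, 18.4, 17.2 and 22.3 in RIC_hEV, with overlapping groups and a change of -0.20 (-0.091 relative, SE 0.15; exact permutation p = 0.314, limma adjusted p = 0.489). Cxcl16, a membrane-bound scavenger and Cxcr6 ligand, was at 8.66 ± 2.73 and 6.82 ± 1.28 FPKM. Its change of -0.27 turned to 0.080 without ctr_hEV 1 and 3, which were its highest libraries, and its exons overlap those of Zmynd15 on the other strand. Cxcl14, a CXC chemokine of epithelia, was at 4.54 ± 2.04 and 3.09 ± 0.382, and its change of -0.38 was -0.024 without both. Ccl27a, better known from skin, was at 1.02 ± 0.259 and 1.16 ± 0.415 with 57.0% of its 31-base stretches also found in other genes and exons that overlap Il11ra1 on the other strand. Cx3cl1, the membrane-bound ligand of Cx3cr1, was below the filter at 1.70, 0.530, 1.35 and 0.530 FPKM in ctr_hEV and 0.520, 0.214, 0.360 and 0.632 in RIC_hEV. Again ctr_hEV 1 and 3 were high and the other 2 controls lay among the RIC_hEV values (exact permutation p = 0.114).

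Of 21 receptors 5 were tested, and none had an unadjusted p under 0.05. Cxcr4, the most abundant, ranked 4 among all 58 members by FPKM. It marks leukocytes and some endothelial cells and was at 12.0, 8.74, 10.3 and 3.89 FPKM in ctr_hEV and 5.38, 8.38, 6.76 and 6.69 in RIC_hEV. The control values enclosed those of RIC_hEV, with a change of -0.24 (-0.13 relative, SE 0.26; exact permutation p = 0.314, limma adjusted p = 0.638). Ccr1, shared by monocytes and neutrophils, was at 3.32, 1.81, 4.36 and 2.22 FPKM in ctr_hEV and 1.49, 2.12, 2.51 and 2.14 in RIC_hEV, and its change was -0.32 (-0.21 relative, SE 0.20; exact permutation p = 0.229, limma adjusted p = 0.433). In both receptors the groups overlapped, and without ctr_hEV 1 and 3 the changes turned to 0.16 (Cxcr4) and 0.017 (Ccr1). Cx3cr1, a receptor of patrolling monocytes and of some macrophages, was at 1.37 ± 0.415 and 1.38 ± 0.190 FPKM, a change of 0.018, and its exons overlap Gm33858 on the other strand. Cxcr6, of NKT and resident T cells, was at 0.966 ± 0.347 and 0.901 ± 0.199, beside T and NK cell marker sums of 11.8 to 20.8 in ctr_hEV and 14.4 to 21.4 in RIC_hEV.

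**Figure D4:**
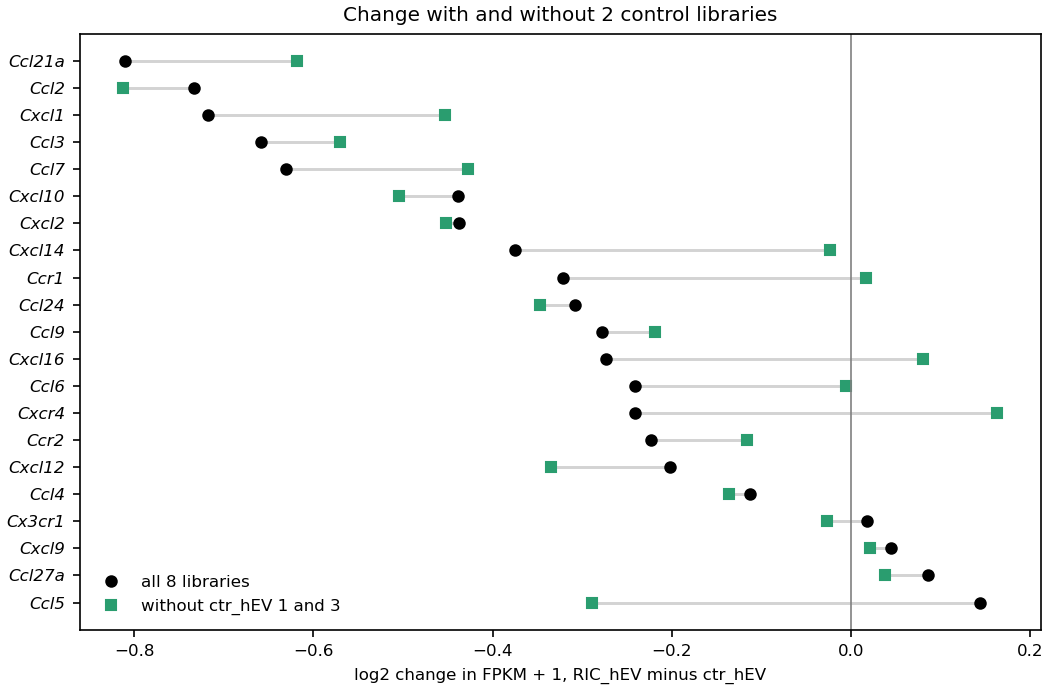
Log2 change (RIC_hEV minus ctr_hEV, on FPKM + 1) of 21 members tested both with all 8 libraries (black circles) and without ctr_hEV 1 and 3 (green squares). Ccl2, Cxcl2, Cxcl10 and Ccl3 keep most of their distance from 0, whereas Ccr1, Cxcr4 and Cxcl16 move across it.

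Without ctr_hEV 1 and 3 the medians of ligands and receptors lay further apart. Relative to all tested genes, the median change was then -0.31 for 17 ligands and 0.021 for 6 receptors, beside -0.20 and -0.13 with all 8 libraries. The median of all tested genes itself moved from -0.11 to -0.028, which enters these relative values. The sets also differed, since Cxcl5 and Ccl21b were no longer tested and a receptor was added. Of 23 members tested without them, 6 were lower at an unadjusted p under 0.05 (Ccl2, Ccl3, Ccl7, Cxcl1, Cxcl2 and Cxcl10), beside 3.27% of all genes tested in that fit, and none passed after adjustment. In 7 pairs of a ligand and its known receptor, several of which share a receptor, the ligand had the lower change in 3 with all 8 libraries (Ccl2 and Ccl7 with Ccr2, and Ccl3 with Ccr1) and in 7 without ctr_hEV 1 and 3. The pairs that turned all held Ccr1 or Cxcr4, in which ctr_hEV 1 and 3 were the highest controls. Leaving these libraries out raises the changes of both receptors, so the count without them does not bear on ligands against receptors. The difference within pairs was not tested.

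Below 1 FPKM on average lay 34 members, 18 ligands and 16 receptors. Of these, Ccl26, Ccl27b and Cxcl15 were listed at 0 in every library, 14 others were at 0 in at least 1 library, and 17 were above 0 in all. The mean was lower in RIC_hEV in 20 and higher in 11, where 62.2% of all genes below the filter with any value had a lower mean. The atypical receptors all belonged here. Ackr2, which clears inflammatory CC chemokines, was at 0.661, 0.734, 0.0673 and 0.777 FPKM in ctr_hEV and 1.32, 0.776, 0.716 and 0.494 in RIC_hEV, where ctr_hEV 3 was low and RIC_hEV 1 high (exact permutation p = 0.429). Ackr3, a scavenger of Cxcl12, was at 0.544 ± 0.0876 and 0.574 ± 0.0564, and Ackr4, which removes Ccl19 and Ccl21, at 0.406 ± 0.137 and 0.403 ± 0.0935. Ackr1, the receptor of venules and red cells, was at 0.467 ± 0.391 and 0.417 ± 0.364, and 23.0% of its 31-base stretches also occur in its neighbour Cadm3. The groups overlapped in all 4.

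Further low members belong to circuits of other leukocytes. Ccl17 and Ccl22, dendritic and macrophage products that bind Ccr4, were at 0.238 ± 0.119 and 0.530 ± 0.115 FPKM in ctr_hEV and 0.394 ± 0.252 and 0.669 ± 0.179 in RIC_hEV, with overlapping groups. Ccr4 was listed at 0 in ctr_hEV 1 and in all RIC_hEV libraries and at 0.0356 to 0.0417 in the other 3 controls, an estimated 3.25 fragments at most. Ccl20, the Ccr6 ligand of epithelia, was at 0.426, 0.0678, 0.220 and 0.0940 in ctr_hEV and 0.110, 0.0350, 0 and 0 in RIC_hEV. Only RIC_hEV 1 reached the control range (exact permutation p = 0.0857). Cxcl13, which draws B cells through Cxcr5, was listed at 0 in ctr_hEV 1 and 3 and lay between 0.135 and 0.574 in the other 6 libraries.

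**Figure D5:**
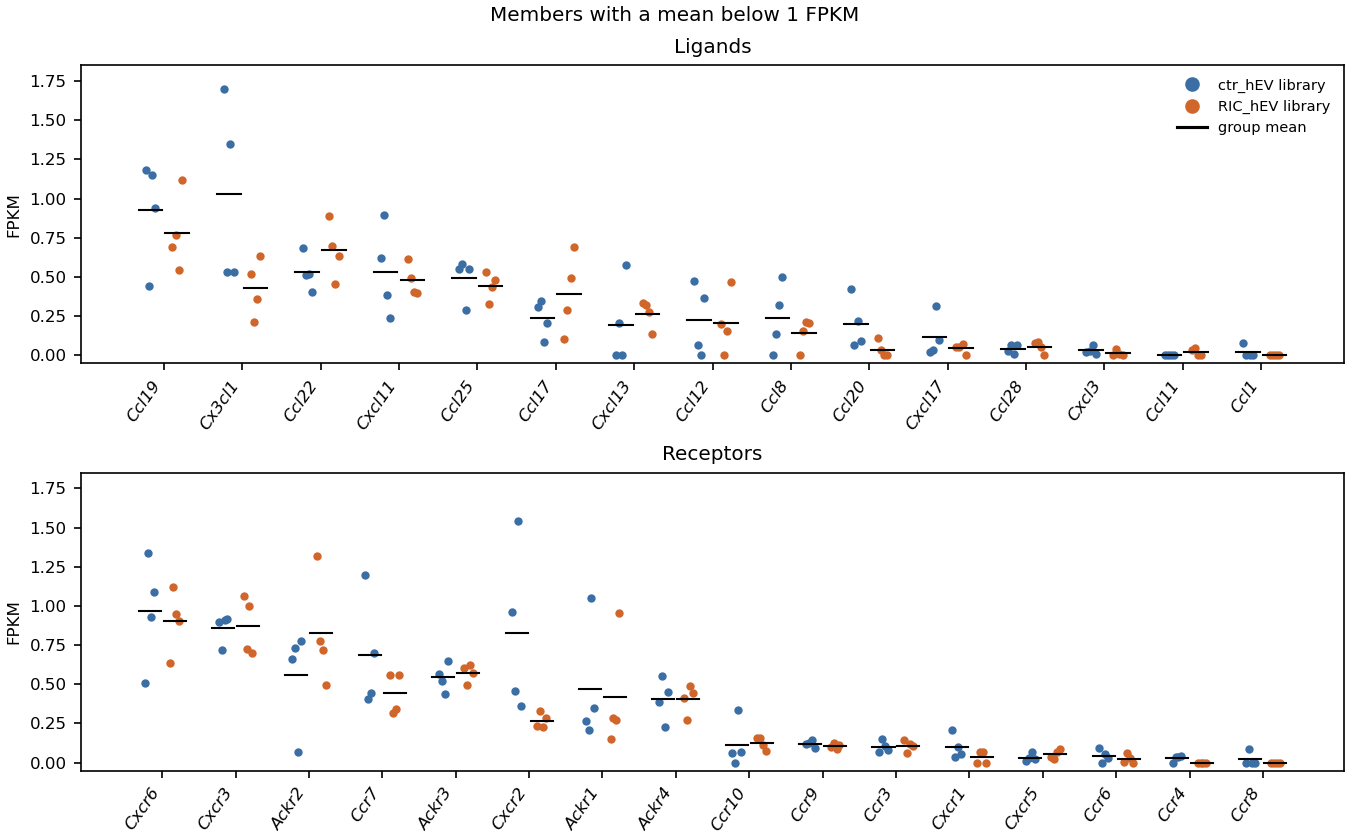
FPKM of the 31 members that averaged below 1 FPKM and had any value above 0, ligands above and receptors below, ordered by mean level. Points are single libraries (blue ctr_hEV, orange RIC_hEV) and bars are group means; only Cxcr2 has groups that do not overlap, and Cx3cl1 shows 2 controls above all other libraries.

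Genes that act around the chemokine system were examined from lists of inducers with their restrainers, receptor signalling, cleavage and display, adhesion and family relatives. No gene of the 5 lists passed after adjustment. Over all tested genes, 11.4% were lower and 2.64% higher at an unadjusted p under 0.05, with a median change of -0.11, and relative to it the list medians were -0.0019 for family relatives, -0.046 for adhesion, -0.076 for cleavage and display, -0.082 for inducers and -0.091 for receptor signalling. The inducer list held 28 tested genes, of which 7 were lower and 1 was higher at an unadjusted p under 0.05, with a median change of -0.19. It includes restrainers of induction, such as Nfkbia, Nfkbie, Tnfaip3 and Zfp36, so these are not counts of inducers alone. The lowest p belonged to Tlr2, a sensor of bacterial lipoproteins, which averaged 6.69 ± 0.925 FPKM in ctr_hEV and 4.30 ± 0.610 in RIC_hEV, to Il1b (2.54 ± 0.363 and 1.48 ± 0.290) and to Nfkbiz, a nuclear partner of NF-kB (5.48 ± 0.856 and 3.71 ± 0.418). In these 3 genes the groups did not overlap, and limma adjusted p was 0.331. Cebpb, the next by p, went the other way, from a mean of 108 FPKM in ctr_hEV to 143 in RIC_hEV. Its change was 0.41 (limma adjusted p = 0.331), and its groups did not overlap either. Every RIC_hEV library lay below every control in 5 of the 28 genes and above in 1. Among all tested genes these shares were 4.56% and 1.31%. Of 40 tested genes of receptor signalling, 7 were lower and 0 higher, with a median change of -0.20, led by the G protein subunits Gng12 (15.5 ± 1.97 and 11.2 ± 0.802) and Gnai3 (27.9 ± 3.16 and 21.4 ± 1.14) and the kinase Jak2 (4.09 ± 0.692 and 2.77 ± 0.113). Of 21 tested genes of cleavage and display, 6 were lower and 0 higher, led by Mmp13 (4.93 ± 0.960 and 2.64 ± 0.250), the macrophage elastase Mmp12 (39.1 ± 10.8 and 23.6 ± 5.67) and Adam17, which sheds Cx3cl1 (4.96 ± 0.604 and 3.82 ± 0.654). Of 18 tested adhesion genes, 4 were lower and 0 higher, led by Icam1 (9.12 ± 2.65 and 6.11 ± 0.440), Cd44 (11.6 ± 3.67 and 7.87 ± 1.23) and Itgb1 (74.9 ± 7.91 and 61.8 ± 6.76). Of 9 tested relatives of the family outside the members, 0 were at that level, and those of lowest p were Cmtm6 (21.6 ± 1.30 and 18.6 ± 1.78), Ccrl2 (2.44 ± 0.389 and 1.91 ± 0.556) and Cd74 (110 ± 29.1 and 94.9 ± 7.07).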

How the data were processed

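Bulk RNA sequencing of liver gave 8 libraries in 2 groups, taken from the sample titles. The deposited values are FPKM computed by the authors, with HISAT2 2.2.1, HTSeq 0.13.5 and build mm10 named in the submitters' processing notes; the FPKM program, annotation and strandedness were not stated. Of 55335 rows, 3225 without a gene name (0.176% to 0.207% of FPKM) were left out, and of 80 symbols on more than 1 row the higher was kept. Genes averaging at least 1 FPKM were compared on log2(FPKM + 1) with limma 3.58.1 (R 4.3.3; mean-variance trend, two-sided, Benjamini-Hochberg, threshold 0.05). The method was tested on simulated data. SE and p belong to the fitted change; relative changes subtract the median gene (-0.11). Members below the filter were compared by exact two-sided permutation tests, unadjusted. Positions, exon lengths and shared 31-base stretches come from GENCODE M21 (GRCm38). Depth was estimated from FPKM times exon length; no count model was used, since whole reads could not be recovered, so precision rests on the spread between libraries. Members and lists were chosen with earlier results of these data known. A tested receptor counts in the totals and is not reported here by value. The other tested members are named; values in all libraries are given for the 10 of lowest p and the 3 most abundant ligands and receptors; other members below the filter, and the full values of Cxcl9, were added after their values were seen. Alternatives covered pseudocount, filter, scaling, library weights, the replicate block and libraries left out.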

Additional observations from a re-analysis of the deposited data

Results flagged for a closer look

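In groups of 4 libraries, 2 of 48 sets of values held a library far from the other 3 (a gap over range above Dixon's 95% critical value), where chance gives about 1 in 20. Ccl21b in ctr_hEV 3 was at 2.58 FPKM against 0.751 to 0.883 in the other controls, a gap of 0.928 of the range, and all of its 31-base stretches occur in other genes. Cxcl14 in RIC_hEV 4 was at 3.66 FPKM against 2.84 to 2.94 in the other RIC_hEV libraries, a gap of 0.878 of the range.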

How the results depend on the processing

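Over the 18 alternatives no member passed after adjustment except without ctr_hEV 4, where the count was 1 (Cxcl1); with single libraries left out the count was 0 to 1. The 10 members lower at an unadjusted p under 0.05 became 6 without ctr_hEV 1 and 3 and 8 to 12 with single libraries left out. Ccl2, Ccl3, Ccl7, Cxcl1, Cxcl2 and Cxcl10 were lower at that level in all 18. The median relative change stayed between -0.34 and -0.13 for ligands, -0.34 and -0.081 for CC ligands and -0.35 and -0.21 for CXC ligands; for receptors it ran from -0.18 to 0.021. Median centring gave 437 genes lower and 924 higher at an unadjusted p under 0.05, against 1279 and 297 as deposited, and moved the median gene from -0.11 to 0.025; 8 members were then lower. With the replicate block 0 members passed and 8 were lower at that level. Correlations of same-numbered libraries' deviations were 0.052, 0.12, -0.0086 and -0.23, and not every library correlated best with its own number. Correlations this weak cannot decide whether the numbers pair the libraries, and the labels do not say. Members near 0 changed sign, and the cause was not tested: Ccl4 with median centring (0.022) and quantile normalization (0.020); Cx3cr1 (-0.012) and Cxcl9 (-0.0056) on the TPM scale; Cx3cr1 with library weights (-0.11); and, with single libraries left out, Cx3cr1 (-0.10 to 0.11), Ccl5 (-0.020 to 0.34), Ccl27a (-0.0033 to 0.20) and Cxcl9 (-0.0068 to 0.099). Without ctr_hEV 1 and 3 the signs of Ccl5 (-0.29), Ccr1 (0.017), Cx3cr1 (-0.027), Cxcl16 (0.080) and Cxcr4 (0.16) turned. Depth limits members at a few fragments, such as Ccr4 and Ccl12.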
